A study of Mus musculus with 9 samples.

Results

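Metallothionein 1 (Mt1) was among the most abundant transcripts of HC11 cells and did not differ between untreated and light-exposed cultures beyond the spread between libraries, and neither did its neighbour Mt2, the metal-sensing transcription factor Mtf1 or the zinc exporter Slc30a1. These 4 genes were taken by symbol from a table of raw counts that holds 54532 genes, and all 4 had enough counts to be tested with 14471 genes in all. HC11 is a mouse mammary epithelial line, for which the labels give the strain C57BL/6, grown in medium with fetal bovine serum. RNA sequencing covered 3 groups of 3 libraries. They were untreated cells (Ctrl) and cells exposed to light of 660 nm at a power of 10 mW in the groups EpPT1 and EpPT2. The fluence of EpPT1 is labelled 10 J/cm2 and that of EpPT2 20 J/cm2, but the treatment protocol gives 0.5 and 1 J/cm2, so no dose is attached to either name here. No source used here gives the time from the light to lysis. Since no label says whether replicates were grown as separate cultures, the p-values describe the spread among libraries, which may be technical.

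Metallothioneins are small cysteine-rich proteins that bind zinc and copper in the cell and can also take up toxic metals such as cadmium. The transcription factor encoded by Mtf1 senses free zinc, enters the nucleus and binds metal response elements in the promoters of Mt1, Mt2 and Slc30a1. Slc30a1 encodes ZnT1, the zinc exporter of the plasma membrane, so that the same factor raises both storage and export of zinc. In mammary epithelium zinc is handled further by other transporters of the Slc30a (export) and Slc39a (import) families, some of which supply the zinc of milk. Metallothionein genes are also known to respond to glucocorticoids and to oxidative stress.

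The promoter sequences just upstream of 3 of the genes are shown because they carry the letters of the element that Mtf1 protein is known to bind. They are RefSeq promoter sequences on build GRCm38.p6, plus strand, and capitals mark each match to TGCACNC or TGCGCNC on either strand.
Mt1, chr8:94178839-94179081: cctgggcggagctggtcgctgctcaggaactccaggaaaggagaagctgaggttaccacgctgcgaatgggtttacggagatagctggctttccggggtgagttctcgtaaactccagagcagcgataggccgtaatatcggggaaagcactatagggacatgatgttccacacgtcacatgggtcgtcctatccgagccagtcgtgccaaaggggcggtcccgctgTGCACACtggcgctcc
Mt2, chr8:94172368-94172617: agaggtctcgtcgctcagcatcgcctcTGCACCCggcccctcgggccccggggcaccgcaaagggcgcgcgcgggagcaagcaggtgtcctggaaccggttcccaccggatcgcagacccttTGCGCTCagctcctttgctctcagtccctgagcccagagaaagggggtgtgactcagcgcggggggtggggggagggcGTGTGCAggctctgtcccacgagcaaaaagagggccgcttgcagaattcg
Slc30a1, chr1:191906531-191906766: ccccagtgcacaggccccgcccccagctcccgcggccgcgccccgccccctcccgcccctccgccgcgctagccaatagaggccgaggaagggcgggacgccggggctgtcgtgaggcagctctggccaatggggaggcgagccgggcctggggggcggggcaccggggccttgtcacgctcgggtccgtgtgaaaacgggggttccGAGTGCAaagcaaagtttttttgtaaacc
The searched window of each gene ran over 300 bases, from 250 before to 50 after the RefSeq start, and RefSeq held a window for all 4 genes. Mt1 had 3 matches in its window, of which the printed one begins at position -23 relative to the RefSeq start. Mt2 had 4 matches, with the 3 printed ones beginning at -223, -128 and -50. Slc30a1 had 2 matches, 1 of them printed and on the minus strand, and Mtf1 had 0. The matches not printed begin after the RefSeq start, at 2 and 20 in Mt1, 4 in Mt2 and 30 in Slc30a1. Among 32851 RefSeq promoter windows of the same length, 25.7% held at least 1 match, 7.11% at least 2, 1.97% at least 3 and 0.517% at least 4. A match describes these letters only, and binding was not measured.

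On build GRCm38, Mt1 (ENSMUSG00000031765) lies on chromosome 8 at 94179082 to 94180327 and Mt2 (ENSMUSG00000031762) at 94172664 to 94173568 on the same strand, with 5513 bases between them. No annotated exon of another gene overlaps the exons of Mt1. In Mt2, 432 of 588 exon bases (73.5%) also lie in an exon of Gm45774, a transcript annotated as antisense, at 94170748 to 94173412 on the minus strand. No source used here gives the strand setting of the counting, so the counts of Mt2 and Gm45774 may not be separable. Mtf1 (ENSMUSG00000028890) lies on chromosome 4 at 124802104 to 124849800 and shares 8.09% of its exon bases with 1110065P20Rik, a protein-coding gene on the opposite strand. Slc30a1 (ENSMUSG00000037434) lies on chromosome 1 at 191906767 to 191913247 and shares 8.92% with the antisense transcript 1700034H15Rik.

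Libraries held 14549787 to 17228929 counts. The share of counts from mitochondrial genes was 6.06% to 7.48% in 4 libraries (Ctrl 3, EpPT1 3, EpPT2 2 and EpPT2 3) and 2.74% to 3.62% in the other 5, a division that crosses the groups. Of the luminal epithelial markers, Krt8, Krt18, Krt19 and Epcam were tested, and the list summed to 1630 to 2580 CPM (counts per 1000000 counts, after TMM scaling), whereas Cdh1 had 4 to 11 counts and Elf5 0 or 1. Basal markers summed to 4.72 to 24 CPM. The fibroblast list reached 742 to 3290 CPM almost wholly through Dcn, with Col1a2 at 0 to 2 counts, and the fat cell list 231 to 409 CPM through Lpl. In these bulk libraries fewer cells expressing a gene and less RNA per cell cannot be told apart.

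The 4 genes covered a wide range of levels. Per kilobase of the length given in the authors' table, the mean level over the 9 libraries was 443 CPM per kb for Mt1, 20.1 for Slc30a1, 5.97 for Mt2 and 2.37 for Mtf1. Mt1 ranked 79 of 14471 tested genes on that scale, Slc30a1 2926, Mt2 6860 and Mtf1 9635. The lowest Mt1 level, 184 CPM per kb in Ctrl 1, stood above the highest level of each of the other genes, 45.4 for Slc30a1 in Ctrl 3. The order of Slc30a1 and Mt2 was not kept in every library, since in Ctrl 2 Mt2 stood at 8.95 CPM per kb and Slc30a1 at 4.21. The ranges of Mt2 (2.41 to 17.6) and Mtf1 (1.84 to 3.03) overlapped. The Mt2 level would be too low if reads in the exon bases shared with Gm45774 were left uncounted. The metallothioneins known from brain and from stratified epithelium, Mt3 and Mt4, had 0 to 2 and 1 to 10 counts per library and were too low to test. With 3 counts taken as the limit that a count of 0 allows, the floor was 0.174 to 0.206 unscaled CPM.

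With edgeR's quasi-likelihood test and Benjamini-Hochberg adjustment over all tested genes, 0 of the 4 genes passed in any of the 3 comparisons, on a background of 0% of 14471 genes in EpPT1 against Ctrl, 0% in EpPT2 against Ctrl and 0% in EpPT2 against EpPT1. At an unadjusted p under 0.05, edgeR had 568 genes (3.93%), 1763 (12.2%) and 31 (0.214%), with 0 of the 4 among them. At the adjusted threshold DESeq2 called 1 (0.00691%), 62 (0.428%) and 0 genes and limma-voom 0 in each, none of them a member. In EpPT1 against Ctrl, 0 of the 4 genes had groups that did not overlap, where 5.26% of tested genes did. Of the tested members of the 5 cell type marker lists, 0 passed as well. Over all tested genes the median SE was 0.37 in EpPT1 against Ctrl, below those of Mt1, Mt2 and Slc30a1.

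Mt1, the metallothionein gene with more counts, stood at 229, 502 and 795 CPM in Ctrl libraries 1 to 3, at 511, 426 and 704 in EpPT1, and at 384, 690 and 727 in EpPT2. The Ctrl libraries enclosed every exposed library, so the groups overlapped in all comparisons. The means were 509 ± 283 CPM in Ctrl, 547 ± 142 in EpPT1 and 600 ± 188 in EpPT2 (SD, n = 3 each). The log2 fold change was 0.10 (SE 0.42, edgeR adjusted p = 0.992) in EpPT1 against Ctrl and 0.24 (SE 0.42, adjusted p = 0.825) in EpPT2 against Ctrl. The 95% intervals ran from -0.83 to 1.04 and from -0.70 to 1.18, and so did not reach a 4-fold change in either direction. Leaving out Ctrl 1, the lowest library, gave -0.24 and -0.11, a change of sign in both comparisons.

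**Figure D1:**
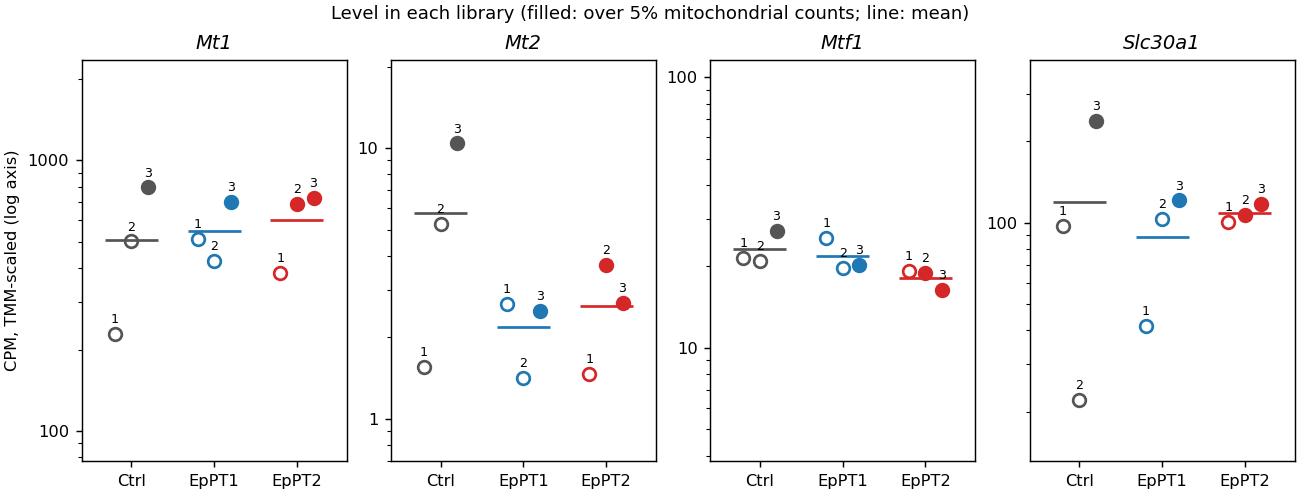
TMM-scaled CPM (log axis) of Mt1, Mt2, Mtf1 and Slc30a1 in each library, by group; numbers are replicates, lines are group means, and filled points are the 4 libraries with over 5% mitochondrial counts. Filled points of Mt1 and Slc30a1 lie above all open ones, and the Mtf1 points of EpPT2 lie below those of both other groups.

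Mt1 followed the mitochondrial share of the libraries across the groups. The 4 libraries with a high share held 690 to 795 CPM of Mt1 and the other 5 held 229 to 511, with means of 729 and 410. Of all tested genes, 16.5% were likewise higher in each of the 4 libraries than in each of the other 5, and 18% lower, so this division is common among genes. Slc30a1 also separated, at 107 to 238 CPM against 22.1 to 103, while Mt2 (2.5 to 10.4 against 1.42 to 5.26) and Mtf1 (16.4 to 27 against 19.3 to 25.5) did not. The list of blood and immune markers moved with Mt1, with sums of 88.3 to 104 CPM in the 4 libraries and 9.31 to 45.9 in the other 5. That sum was nearly all Cd68, a lysosomal membrane protein also found outside macrophages, with Ptprc at 1 to 11 counts and Adgre1 at 0 in every library. The basal epithelial list made the same division, at 20.3 to 24 CPM against 4.72 to 9.87, mostly through Krt14 (16.7 to 20.4 against 3.6 to 8.31 CPM), with Acta2 at 0 to 6 and Trp63 at 1 to 10 counts. The part of these markers in the level of Mt1 was not tested. With the mitochondrial share as a covariate in the fit, Mt1 differed by 0.28 (SE 0.23) and 0.11 (SE 0.23) from Ctrl on the log2 scale, adjusted p = 0.579 and 0.789 by edgeR.

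By the smallest root mean square difference of log2 CPM over the 9 libraries, each gene centred on its own mean, the 5 genes most like Mt1 among 9624 were Gpi1 (0.12), Aldoa (0.13), Zfand2a (0.14), Lgals3 (0.15) and Vps37b (0.16). The median difference over all those genes was 0.66, and the SD of Mt1 itself was 0.54. Gpi1 and Aldoa encode glycolytic enzymes, Zfand2a is known to be induced by arsenite, and Lgals3 encodes galectin 3. Gpi1 stood at 304, 584 and 876 CPM in Ctrl, 524, 444 and 788 in EpPT1, with 449, 722 and 735 in EpPT2, so its lowest and highest libraries were those of Mt1. None of the other 3 members was near Mt1 on this measure, with 0.58 for Mtf1, 0.65 for Mt2 and 0.94 for Slc30a1.

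**Figure D2:**
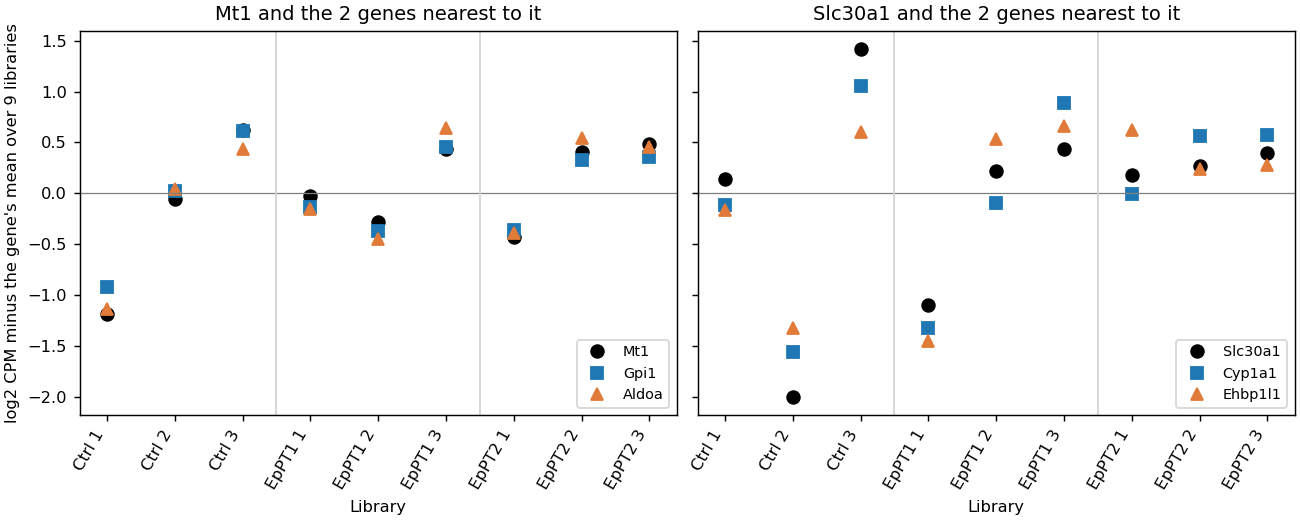
log2 CPM minus the gene's mean over the 9 libraries, for Mt1 with Gpi1 and Aldoa (left) and for Slc30a1 with Cyp1a1 and Ehbp1l1 (right), by library. Mt1 and its neighbours share a low point in Ctrl 1 and higher values in the 4 libraries with a high mitochondrial share; Slc30a1 and its neighbours share low points in Ctrl 2 and EpPT1 1.

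Mt2 had few counts beside Mt1, but 73.5% of its exon bases are shared with Gm45774. Reads there may have gone uncounted, which was not tested. Mt2 had 25, 88 and 138 counts in Ctrl, 46, 25 and 36 in EpPT1, beside 24, 56 and 38 in EpPT2. That is 1.55, 5.26 and 10.4 CPM, 2.65, 1.42 and 2.5 CPM, and 1.46, 3.69 and 2.68 CPM. Ctrl 2 and Ctrl 3 were the highest of the 9 libraries, but Ctrl 1 lay within the exposed range, so the groups overlapped. Group means were 5.72 ± 4.42, 2.19 ± 0.674 and 2.61 ± 1.12 CPM (SD, n = 3 each). The log2 fold change was -1.38 (SE 0.64) in EpPT1 against Ctrl and -1.13 (SE 0.64) in EpPT2 against Ctrl, the largest in size among the 4 genes. Neither passed, with edgeR adjusted p = 0.991 and 0.467 (unadjusted p = 0.0561 and 0.107), and the 95% intervals of -2.81 to 0.04 and -2.54 to 0.29 include 0. The 2 comparisons share the Ctrl libraries, and without Ctrl 3 the values were -0.64 and -0.39, and without Ctrl 1 -1.83 and -1.58 (edgeR unadjusted p = 0.00668 and 0.0144, adjusted p = 0.998 and 0.688). In EpPT2 against EpPT1, Mt2 differed by 0.25 (SE 0.64) and Mt1 by 0.13 (SE 0.42), both at edgeR adjusted p = 1.

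The antisense transcript over Mt2 varied more than Mt2 did. Gm45774 had 0, 3 and 53 counts in Ctrl, 2, 7 and 112 in EpPT1, with 12, 83 and 98 in EpPT2. Its 4 high values were those of the 4 libraries with a high mitochondrial share, at 3.98 to 7.76 CPM against 0 to 0.731 in the other 5. Of all tested genes, 16.5% were likewise higher in those 4 libraries without overlap. In EpPT1 3, EpPT2 2 and EpPT2 3 Gm45774 exceeded Mt2, whereas in Ctrl 3 it stayed below.

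Mt1 and Mt2 are usually induced together, and their ratio takes out what both share, so it was added as a comparison after the values were seen. There were 148, 95.4 and 76.7 Mt1 counts for each Mt2 count in Ctrl, 192, 301 and 282 in EpPT1, beside 263, 187 and 271 in EpPT2. Every exposed library stood above every Ctrl library. How many other pairs of genes separate in this way was not tested. Of single tested genes, 5.26% did not overlap in EpPT1 against Ctrl, and in EpPT2 12.3% were higher and 10.9% lower without overlap. The log2 difference of the ratio was 1.31 in EpPT1 and 1.21 in EpPT2 against Ctrl, each with p = 0.1 in an exact two-sided permutation test, the smallest that 3 against 3 libraries allow (0.15 adjusted over 3 comparisons). EpPT1 and EpPT2 differed by -0.10 (exact permutation p = 0.5). When the counts of Gm45774 were added to those of Mt2, the ratio was 148, 92.3 and 55.5 in Ctrl, 184, 235 and 68.6 in EpPT1, with 175, 75.3 and 75.7 in EpPT2. The groups then overlapped, and the differences from Ctrl were 0.66 (exact permutation p = 0.4) and 0.13 (p = 0.9). The sum takes all counts of Gm45774, which also extends outside Mt2 (from 94170748, where Mt2 begins at 94172664). It also brings in the division of Gm45774 by mitochondrial share, so it is not a correction of the Mt2 counts. Reads given to neither gene would be missing from both forms of the ratio.

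**Figure D3:**
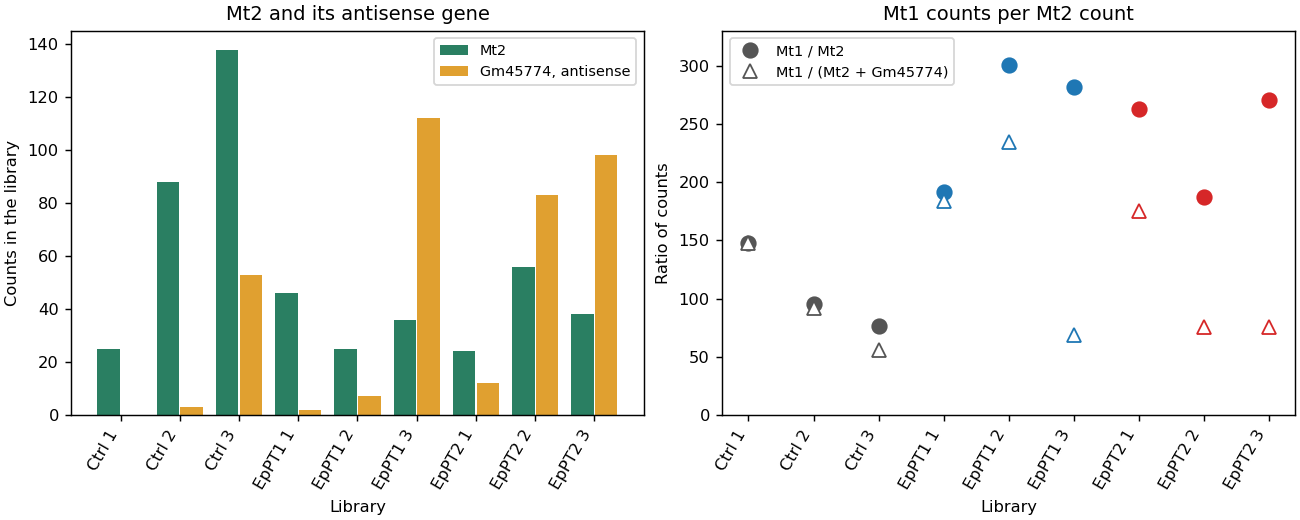
Counts of Mt2 and of its antisense gene Gm45774 in each library (left, bars), and the ratio of Mt1 counts to Mt2 counts without and with the Gm45774 counts added (right, circles and triangles). The circles of the 6 exposed libraries lie at 187 to 301 and those of Ctrl at 76.7 to 148, while the triangles of the groups overlap.

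The 5 genes most like Mt2 by the same measure were Vim (0.36), Ttbk2 and Ppp1r3b (0.39 each), and Fam114a1 and Ccng2 (0.41 each), at a median over all of 0.95. Vim encodes the intermediate filament vimentin and Ccng2 a cyclin linked to growth arrest. Vim stood at 721, 1630 and 2750 CPM in Ctrl, 1600, 586 and 1440 in EpPT1, beside 636, 1470 and 1440 in EpPT2, and was highest in Ctrl 3, as Mt2 was. The summed fibroblast list was also highest in Ctrl 3, at 1300, 2150 and 3290 CPM in Ctrl, 2100, 742 and 1820 in EpPT1, with 760, 2010 and 2120 in EpPT2. Nearly all of it was Dcn, with Lum at 0 to 3 and Pdgfrb at 0 to 7 counts. The other tested members did not share the order of Mt2, since Col1a1 averaged 0.918 CPM in Ctrl, 2.09 in EpPT1 and 2.22 in EpPT2 (log2 fold changes 1.19 and 1.28, edgeR adjusted p = 0.991 and 0.438) and Pdgfra 5.46, 4.98 and 6.26. The part of Dcn in the values of Mt2 was not tested.

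Mtf1, the zinc sensor, was the steadiest of the 4. Its levels were 21.5, 21 and 27 CPM in Ctrl, 25.5, 19.8 and 20.3 in EpPT1, beside 19.3, 18.9 and 16.4 in EpPT2. All 3 EpPT2 libraries lay below all libraries of both other groups, while Ctrl and EpPT1 overlapped. The within-group SD of its log2 level was 0.18, smaller than in all but 5.71% of tested genes. Means were 23.2 ± 3.3, 21.9 ± 3.15 and 18.2 ± 1.58 CPM (SD, n = 3 each). The log2 fold change in EpPT2 was -0.35 (SE 0.23, edgeR adjusted p = 0.52) against Ctrl and -0.27 (SE 0.23, adjusted p = 1) against EpPT1, and neither passed.

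Exact two-sided permutation tests of Mtf1 gave p = 0.1 in both of those comparisons, the smallest possible, and 0.6 when adjusted over 12 tests of the 4 genes. Groups that did not overlap, with EpPT2 lower, were found for 10.9% of tested genes against Ctrl and for 1.2% against EpPT1. In EpPT1 against Ctrl the log2 fold change of Mtf1 was -0.08 (SE 0.23, adjusted p = 0.991). The gene that overlaps its end, 1110065P20Rik, had 36, 60 and 39 counts in Ctrl, 52, 177 and 200 in EpPT1, with 146, 184 and 156 in EpPT2. Those counts were higher in EpPT2 than in Ctrl, opposite to Mtf1. The log2 fold change of 1110065P20Rik there was 1.87 (SE 0.5, edgeR adjusted p = 0.376), and 12.3% of tested genes were likewise higher without overlap. What its counts add to or take from Mtf1 was not tested. Cox7c, Klhl2 and Cwc25, named after their values were seen, were most like Mtf1 (0.08 each, at a median of 0.41 over all).

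Slc30a1, the plasma membrane exporter, was the most uneven. It stood at 97.5, 22.1 and 238 CPM in Ctrl, 41.7, 103 and 121 in EpPT1, beside 101, 107 and 117 in EpPT2. The Ctrl libraries spanned 10.8-fold and enclosed all others, those of EpPT1 spanned 2.89-fold and those of EpPT2 1.17-fold. Means were 119 ± 110, 88.6 ± 41.5 and 108 ± 8.45 CPM (SD, n = 3 each). Its within-group SD on the log2 scale, 1.11, was above that of 98.9% of the 1000 tested genes nearest to it in level, and whether the spread itself differs between groups was not tested.

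The log2 fold change of Slc30a1 was -0.43 (SE 0.66, edgeR adjusted p = 0.991) in EpPT1 and -0.14 (SE 0.66, adjusted p = 0.941) in EpPT2 against Ctrl, with 95% intervals of -1.89 to 1.03 and -1.60 to 1.32. No direction can be given for either. The differences in mean log2 CPM, which weigh the libraries equally, were 0.01 and 0.43, and leaving out Ctrl 3 gave 0.56 and 0.86 by edgeR. In EpPT2 against EpPT1 it was 0.29 (SE 0.66, adjusted p = 1). Beside it, the antisense transcript 1700034H15Rik had 8 to 41 counts per library.

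Chosen after the values were seen, the genes most like Slc30a1 were Cyp1a1 (0.32), Ehbp1l1 and Amotl2 (0.43 each), and Nab2 and Maf (0.44 each), at a median of 1.01 over all. Cyp1a1, a target of the aryl hydrocarbon receptor, stood at 172, 63.6 and 387 CPM in Ctrl, 74.4, 174 and 346 in EpPT1, with 185, 275 and 277 in EpPT2. Both genes were lowest in Ctrl 2 and EpPT1 1 and highest in Ctrl 3. Mt1, which the same metal sensor is known to control, shared with Slc30a1 the higher levels in the 4 libraries with a high mitochondrial share, but not the order within the other 5. The root mean square difference between them was 0.94, beside an SD of 0.93 for Slc30a1 itself. In Ctrl 1 Mt1 was at its lowest while Slc30a1 was near its mean.

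**Figure D4:**
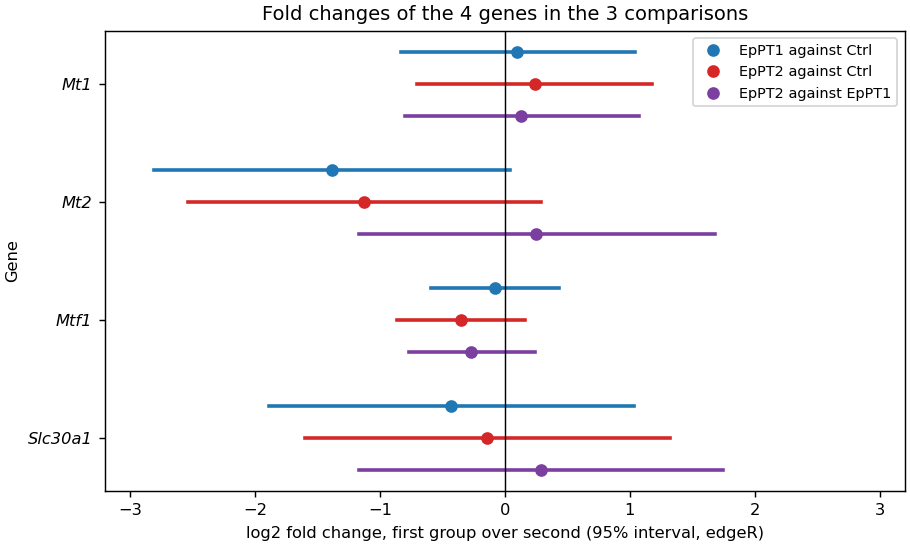
log2 fold changes of the 4 genes in the 3 comparisons, with 95% intervals computed from the edgeR test. Every interval includes 0, the narrowest are those of Mtf1, and the values of Mt2 against Ctrl, -1.38 and -1.13, lie farthest from 0.

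The other zinc exporters of the Slc30a family were measured beside Slc30a1. Of 10 listed exporters, 6 were tested and 0 rose or fell in any comparison, and Slc30a10 had 0 counts in all libraries. Slc30a5 (17.4 CPM per kb), which loads the secretory pathway, Slc30a4 (13.2), an exporter into vesicles, and Slc30a6 (7.61), the partner of Slc30a5, were the highest after Slc30a1. Slc30a4 stood at 87.9, 89.3 and 77.2 CPM in Ctrl and at 61.5, 58.3 and 71.8 in EpPT2, without overlap, and differed by -0.41 (SE 0.26, edgeR adjusted p = 0.504). Slc30a9 stood at 67.3 to 70.5 CPM in Ctrl and 51.2 to 62.1 in EpPT2 (log2 fold change -0.29, SE 0.19, adjusted p = 0.51). In EpPT1 it stood at 50 to 62.2 CPM, also below Ctrl. Of all tested genes, 10.9% were lower in EpPT2 than in Ctrl without overlap. In EpPT1 against Ctrl, 5.26% did not overlap in either direction. The median over the 6 was -0.31 in EpPT1 and -0.22 in EpPT2 against Ctrl, beside -0.02 and -0.03 over all tested genes.

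Of 14 listed importers of the Slc39a family, 12 were tested, 0 passed with edgeR and 1 (Slc39a3, in EpPT2 against Ctrl) with DESeq2, and Slc39a12 had 0 counts throughout. The highest per length were Slc39a1 (50.9 CPM per kb) and Slc39a6 (22.8), with Slc39a4 (26.2), the intestinal importer known from acrodermatitis enteropathica, between them. Slc39a1, a plasma membrane importer, had 117 CPM in Ctrl and 120 and 125 in EpPT1 and EpPT2 (log2 fold changes 0.04 and 0.10, SE 0.21 each). The median over the 12 was 0.15 in EpPT1 and 0.29 in EpPT2 against Ctrl, with 10 of 12 above 0 in each, where 48% and 47.9% of all tested genes were. At an unadjusted p under 0.05 by edgeR were 2 and 3 of the 12, beside 3.93% and 12.2% of all tested genes.

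The smallest p among the zinc transporters were those of Slc39a3, a plasma membrane importer. It stood at 9.31, 10.6 and 9.54 CPM in Ctrl, at 9.81, 21.4 and 24.9 in EpPT1, and at 21.3, 27.5 and 26 in EpPT2. All EpPT2 libraries and 2 of the 3 EpPT1 libraries were above Ctrl, and EpPT1 1 lay among the Ctrl values. Groups that did not overlap, with EpPT2 higher than Ctrl, were found for 12.3% of tested genes. The log2 fold change was 0.93 (SE 0.33) in EpPT1 and 1.34 (SE 0.34) in EpPT2, with edgeR adjusted p = 0.991 and 0.376, and an adjusted p of 0.0423 with DESeq2 in EpPT2. Slc39a5, known from the basolateral side of epithelia, had 0, 10 and 10 counts in Ctrl, 4, 60 and 49 in EpPT1, with 56, 56 and 42 in EpPT2, and again EpPT1 1 lay with Ctrl. Its log2 fold change in EpPT2 was 2.90 (SE 1.06, adjusted p = 0.376). Slc39a4 stood at 59.3 to 66.1 CPM in Ctrl and 82.6 to 111 in EpPT2 (0.66, SE 0.24, adjusted p = 0.376). Exons of these 3 genes overlap no other annotated gene, whereas 80.7% of those of Slc39a7 do.

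The GC content of transcripts differed between the lists of exporters and importers. The median GC content of the tested exporters was 43.9%, of the importers 53.6% and of all tested genes 49.4%, and Slc39a3, Slc39a4 and Slc39a5 stood at 59.4%, 56.9% and 60%. A spline on GC content was then removed in each library. The median in EpPT2 against Ctrl became 0.07 for the exporters and 0.24 for the importers. All tested exporters then lay above 0, where 1 of 6 had, and of the importers only Slc39a1 lay below 0. The share above 0 and the median of all tested genes after the correction are not given here. Neither these signs nor the corrected medians are therefore read as a result. The corrected log2 fold changes were 0.65 for Slc39a3, 0.18 for Slc39a4 and 2.25 for Slc39a5, and that of Slc39a1 turned to -0.08. The exporters' median in EpPT1 against Ctrl became -0.08, and the importers' 0.05.

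**Figure D5:**
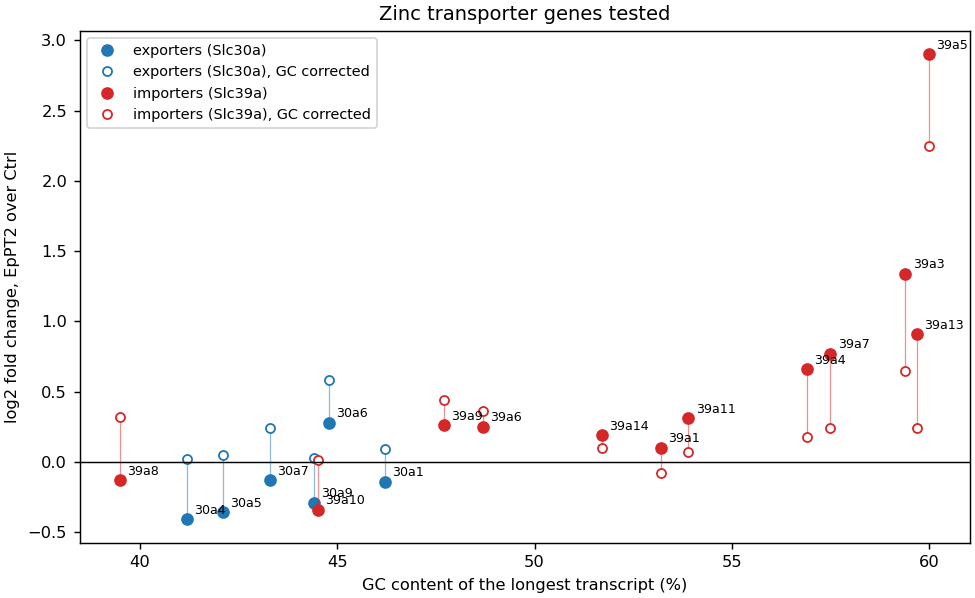
log2 fold change in EpPT2 against Ctrl of each tested zinc transporter (number after Slc) by the GC content of its longest transcript, before (filled) and after (open) the GC correction, with a line joining each pair. Exporters lie at 41.2% to 46.2% GC and mostly below 0 before the correction. The importers Slc39a8 (39.5%) and Slc39a10 (44.5%) also lie low in GC content and below 0, and Slc39a3, Slc39a4 and Slc39a5 lie near 60% GC and above 0.

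Other genes linked to MTF-1 in the literature gave 0 of 7 tested past the threshold, with medians of -0.22 and -0.10 in EpPT1 and EpPT2 against Ctrl. Csrp1 (111 CPM per kb), Selenow (98.1) and Hif1a (32.7), the oxygen-regulated transcription factor, were the highest of them. Hif1a stood at 84.7 to 132 CPM in the 4 libraries with a high mitochondrial share and at 216 to 391 in the other 5. That is opposite to Mt1 and was also found for 18% of all tested genes. Cebpa, a transcription factor of differentiation, had 11.9, 13.6 and 17.3 CPM in Ctrl, 9.7, 41.9 and 20.2 in EpPT1, beside 36.3, 22 and 18.4 in EpPT2 (log2 fold change 0.85 in EpPT2, SE 0.48, edgeR adjusted p = 0.466). After the GC correction that difference was -0.06, at a GC content of 62.6%, and that of Hif1a was -0.32 in place of -0.76.

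Copper, which metallothioneins also bind, is handled by 9 listed genes, all tested, of which 0 passed. Atox1 (83 CPM per kb), a copper chaperone, Sod1 (77.1), the copper and zinc superoxide dismutase, and Ccs (28.1), which delivers copper to it, were the highest. Sod1 stood at 202 to 310 CPM in Ctrl and 353 to 360 in EpPT2 (0.56, SE 0.23, edgeR adjusted p = 0.388). Ccs stood at 18.6 to 24.2 CPM in Ctrl and 28.5 to 41.8 in EpPT2 (0.73, SE 0.30, adjusted p = 0.385). Other members were lower in EpPT2 than in Ctrl without overlap, and are named after their values were seen. They were the copper pumps and carriers Atp7a (10.2 to 11.9 CPM in Ctrl, 3.23 to 8.38 in EpPT2; -0.86, SE 0.36, adjusted p = 0.394) and Slc31a1 (-0.40, SE 0.20, adjusted p = 0.428), and Commd1 (-0.41, SE 0.28, adjusted p = 0.537). In all, 2 of the 9 were higher and 3 lower without overlap, beside 12.3% and 10.9% of tested genes. The GC correction gave 0.72 for Sod1, farther from 0 than before. It gave 0.30 for Ccs, -0.53 for Atp7a, -0.05 for Slc31a1 and -0.13 for Commd1. The list's median was 0.10 in EpPT1 and 0.30 in EpPT2.

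Of 8 genes known to answer heavy metals and oxidants, 6 were tested and 0 passed. Hmox1, which encodes heme oxygenase 1, had 105, 72.2 and 431 CPM in Ctrl, 253, 311 and 638 in EpPT1, with 292, 518 and 540 in EpPT2 (log2 fold changes 0.98 and 1.15, SE 0.62 each, edgeR adjusted p = 0.991 and 0.456). Only Ctrl 3 of the untreated libraries lay within the exposed range. Txnrd1, at 37.9 CPM per kb, differed by 0.13 and 0.04, and Srxn1 by 0.40 and 0.08 (0.29 and -0.09 after the GC correction).

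Glucocorticoid-induced genes, taken because Mt1 and Mt2 answer that hormone, gave 0 of 7 past the threshold. Dusp1 (176 CPM per kb) encodes a phosphatase of the MAP kinases. It had 857 to 925 CPM in the 4 libraries with a high mitochondrial share and 43.6 to 213 in the other 5. Mt1 shared this division, as did 16.5% of all tested genes. Per1, a clock gene with glucocorticoid control, had 14.1, 16.7 and 15.8 CPM in Ctrl, 15.5, 42.1 and 32.6 in EpPT1 and 23.8 to 41.3 in EpPT2 (log2 fold change 0.96 in EpPT2, SE 0.37, edgeR adjusted p = 0.376). The GC correction brought it to 0.31. Sgk1, an ion transport kinase, had 149 CPM in Ctrl, 149 in EpPT1 and 159 in EpPT2.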

How the data were processed

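The authors deposited 1 table of raw counts per gene with a column for each library, and a gene length that was used here only for levels per kilobase. The submitters' processing notes name Bowtie 0.12.2 and build mm8. Start and end in the table equal those of GENCODE M21, build GRCm38, for 53499 of 54409 matched IDs (98.3%), so GRCm38 coordinates are given. No source used here gives the counter, strand setting or filters. The series title names human breast epithelium and a laser, while the organism label and gene IDs are mouse and the design text names an LED.

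Libraries were grouped by title. Counts were fitted in edgeR 4.0.16 (R 4.3.3) with TMM scaling, filterByExpr, 1 fit of all 9 libraries (6 residual degrees of freedom) and the two-sided quasi-likelihood test, adjusted by Benjamini-Hochberg with a threshold of 0.05. The SE given with edgeR values was computed as the size of the log2 fold change over the square root of the test's F statistic. The 95% intervals used the t distribution with the test's total degrees of freedom. CPM are TMM-scaled unless said otherwise, and log2 CPM used a prior count of 2. Floors cover counting error only. The 4 genes and 12 lists were chosen with earlier results of these data known. The text names the 4 genes in every library, up to 3 list genes by level per length and up to 2 by p, and the 5 genes most like Mt1 and like Mt2 with a mean of at least 5 CPM, predicted genes and pseudogenes left out. Alternatives were DESeq2 1.42.0 and its size factors, limma-voom (limma 3.58.1), other filters, the replicate number as a block, the 6 libraries compared, the mitochondrial share, a GC correction (spline with 5 degrees of freedom; 13 tested genes had no GC value) and leaving out each library. The fits were tested on simulated data with less spread between libraries than these have. That test checks the code and cannot show how often a change would be found here. No pair of libraries of a group was alike within sampling noise. The lowest chi-square per gene, 4.95, was that of EpPT2 2 and EpPT2 3, and the other pairs stood at 52.1 to 163.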

Additional observations from a re-analysis of the deposited data

How the results depend on the processing

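In all 3 comparisons, 0 of the 4 genes passed under each alternative run. Mt2 was lower than in Ctrl under 18 of 18 alternatives in EpPT1 and in EpPT2, with lowest adjusted p values of 0.349 and 0.139 (both with the mitochondrial share as a covariate), and could not be fitted under the filter of 5 CPM, which removes it. Mtf1 was lower in EpPT2 than in Ctrl, and than in EpPT1, under 19 of 19. Over all genes, the fit without a filter called 32 genes in EpPT1 and 268 in EpPT2 against Ctrl, and 2 between the exposed groups, where DESeq2 called 1, 62 and 0. Leaving out 1 library at a time gave 0 to 2 in EpPT2 against Ctrl, with 2 only without EpPT1 1. Of the lists, the fit without a filter called Slc39a3, Slc39a5 and Hmox1 and DESeq2 called Slc39a3, all in EpPT2 against Ctrl.

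The sign of other log2 fold changes turned, and the cause was not tested. In EpPT1 against Ctrl, Slc30a1 was 0.02 with limma-voom, 0.30 in libraries under 5% mitochondrial counts and 0.56 without Ctrl 3; Mtf1 was 0.10 in those libraries and 0.04 without Ctrl 3. Mt1 was -0.0017 with the GC correction, -0.24 without Ctrl 1 and -0.12 without EpPT1 3. In EpPT2 against Ctrl, Slc30a1 was 0.45 with limma-voom, 0.77 in libraries under 5% mitochondrial counts and 0.09 with the GC correction. Without Ctrl 3 it was 0.86, and Mt1 was -0.11 without Ctrl 1. Of the EpPT2 libraries only EpPT2 1 (3.38%) lay under 5%, so every EpPT2 value from that subset rests on this library alone. In EpPT2 against EpPT1, the mitochondrial covariate gave -0.16 for Mt1 and -0.15 for Mt2, and the libraries under 5% gave -0.28 and -0.47. There, Mt1 was -0.02 without EpPT1 2 or EpPT2 3, Mt2 -0.08 without EpPT2 2 and Slc30a1 -0.04 without EpPT1 1. The log2 difference of the Mt1 to Mt2 ratio between EpPT2 and EpPT1 was 0.13 in the libraries under 5%, 0.02 without EpPT1 2 and 0.07 without EpPT2 2. With 1 library left out in turn, log2 fold changes against Ctrl ran from -0.24 to 0.58 (EpPT1) and -0.11 to 0.71 (EpPT2) for Mt1, from -0.92 to 0.56 and -0.63 to 0.86 for Slc30a1, from -1.83 to -0.64 and -1.58 to -0.39 for Mt2, and from -0.21 to 0.04 in EpPT1 for Mtf1. Between EpPT2 and EpPT1 they ran from -0.02 to 0.37 for Mt1, -0.08 to 0.54 for Mt2 and -0.04 to 0.58 for Slc30a1, and the ratio from -0.30 to 0.07. Against Ctrl the ratio kept its sign, from 1.10 to 1.57 in EpPT1 and from 1.00 to 1.47 in EpPT2 when 1 library was left out.

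The replicate number as a block turned Slc30a1 in EpPT2 against Ctrl to 0.16 (adjusted p = 0.892), changed no other sign of the 4 genes against Ctrl, and called 0 genes in each comparison. Libraries of the same number correlated at -0.64 to 0.73 in their deviations from the group means, with 6 of 9 pairs over 0.1 and 4 of 9 libraries closest to their own number, so the numbers were not taken to pair the libraries. Mt2 rests on 24 to 138 counts per library and Gm45774 on 0 to 112, which limits both and their ratio.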
